A study of Mus musculus with 6 samples.

Results

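Collagens were examined through 44 genes for collagen alpha chains, taken from the array by symbol (Col, a type number, a, a chain number). They were among 19937 genes named by 21640 probe sets that the platform annotation pairs with exactly 1 symbol, and where a gene had 2 probe sets (*Col6a5* and *Col6a6*) the one with the higher mean over the 6 arrays was kept. The arrays were made from plasmacytoid dendritic cells (pDCs), the interferon-producing dendritic cells, grown in culture from the bone marrow of 3 C57BL/6 mice. All cells carried floxed alleles of *Gfi1* and *Gfi1b* (Gfi1f/f; Gfi1bf/f) and ERCre, a tamoxifen-dependent Cre recombinase whose cDNA sits in the *Rosa26* locus and is not limited to one cell type. The marrow of each mouse was split, and 1 portion was left untreated (WT) while the other received 1 µM tamoxifen (KO) as the cells differentiated in 25 ng/ml Flt-3L, which drives the growth of dendritic cells. B220+ CD11c+ cells were then sorted, which gave 3 WT and 3 KO arrays. WT cells therefore have the same alleles and Cre as KO cells, the effects of tamoxifen and of the deletion cannot be told apart, and the study's genotyping found poor deletion in such cultures. The comparison asks which genes differ in pDCs that developed under deletion of the repressors GFI1 and GFI1B.

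Collagens are trimers of alpha chains wound into a triple helix, and they form the scaffold of the extracellular matrix. Fibrillar collagens assemble into the banded fibrils of connective tissue, network-forming collagens into sheets such as basement membranes, and type 6 collagen into beaded microfibrils close to cells. The chains are made mainly by fibroblasts and other mesenchymal cells, and marrow holds such cells in its stroma. pDCs are not known as a source of matrix. The 44 chains were grouped as 11 fibrillar chains (types 1, 2, 3, 5, 11, 24 and 27), 9 network chains (types 4, 8 and 10), 6 chains of type 6 and 18 chains of other types.

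A level is given as a linear intensity, and a difference as KO minus WT on the log2 scale. The background level was set at an intensity of 62.1, below which the mean level of 95% of 1194 genes for odorant and pheromone receptors lay. By this measure 29 of the 44 chains (65.9%) were above background, against 57.6% of all 21640 probe sets. They were 9 fibrillar, 4 network, 4 type 6 and 12 other chains. The chain nearest above the limit was *Col4a2* (mean log2 intensity 6.15) and the nearest below it was *Col11a1* (5.92), where the limit is 5.96.

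Of the 44 chains, 9 were at least 2-fold lower in WT cells of mouse 1 than in WT cells of both other mice, and they are called the low set here. *Col1a1*, *Col1a2*, *Col3a1*, *Col5a2*, *Col8a1*, *Col6a1*, *Col6a2*, *Col6a3* and *Col12a1* were also low in KO cells of mouse 1, at intensities of 40.6 to 138.3. In mice 2 and 3 they were high in sorted WT cells and 1.87-fold to 3.58-fold lower in sorted KO cells. Some lists of cell type markers were also lowest in mouse 1 (fibroblast, smooth muscle, macrophage and neutrophil). Fibroblast markers other than collagens summed to 366.9, 1741 and 1497 in WT cells of mice 1, 2 and 3 and 384, 933.3 and 905.3 in KO cells. Neutrophil markers summed to 1213, 8004 and 9254 and 353.9, 2098 and 3827, and so fell in mouse 1 too, where the 9 chains summed to 647.3 in WT and 674.3 in KO cells. The pDC and endothelial sums ran the other way, highest in mouse 1. Osteoblast and chondrocyte sums stayed within 141.9 to 179.5 and 208.1 to 252.2. The part of other cells in the collagen values was not tested. The other 35 chains varied by at most 1.76-fold over all 6 arrays. None of the 44 chains passed an adjusted p of 0.05 in limma over the 3 mice, where 0% of all probe sets did. With both arrays of mouse 1 left out, 6 of the 44 were called lower, against 0.490% of all probe sets, and all 6 were in the low set. That set was chosen by its high WT values in mice 2 and 3, which this comparison uses again, so the choice and the test are not independent. In sorted cells of this kind, fewer cells of a type and less RNA per cell cannot be told apart.

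**Figure D1:**
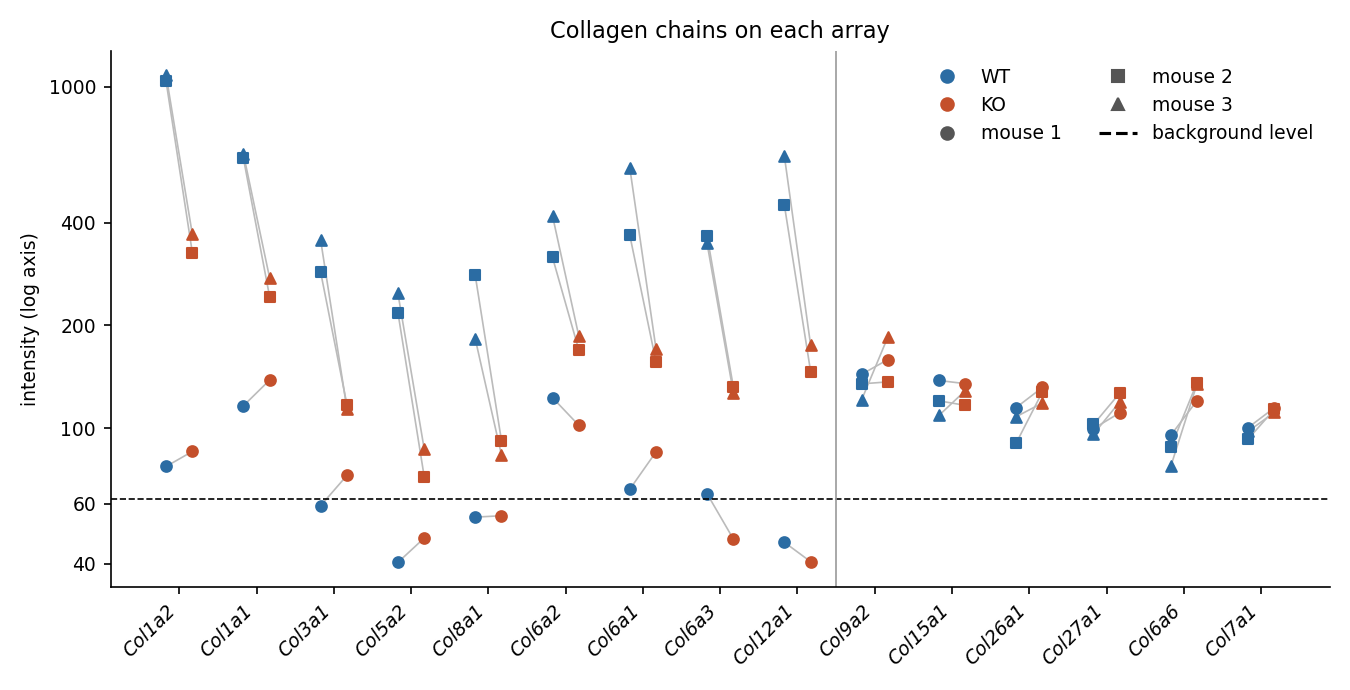
Intensity (log axis) of 15 collagen chains on the 6 arrays, WT in blue and KO in red, with a symbol for each mouse and a line joining the WT and KO arrays of a mouse. Left of the grey line are the 9 chains that were low in mouse 1, and right of it the 6 of the other 35 with the highest mean intensity. Among the 9, WT arrays of mice 2 and 3 lie between 182.8 and 1083, and both arrays of mouse 1 lie between 40.4 and 138.3.

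Of the fibrillar chains, 4 were in the low set, among them both chains of type 1 collagen, the main protein of bone, tendon and scar. *Col1a2* had WT intensities of 77.2, 1039 and 1083 in mice 1, 2 and 3 and KO intensities of 85.4, 326.6 and 369.8. *Col1a1*, whose product pairs with that of *Col1a2* in the type 1 trimer, had WT intensities of 116.2, 619.5 and 637.5 and KO intensities of 138.3, 242.5 and 275.4. Both chains were lower in the KO culture of mice 2 and 3 and a little higher in that of mouse 1, and because of mouse 1 the groups overlap. *Col3a1*, the chain of type 3 collagen, which accompanies type 1 in soft tissue, had WT intensities of 59.2, 286.4 and 355.5 and KO intensities of 72.7, 117.2 and 114. *Col5a2*, a chain of the type 5 collagen that starts type 1 fibrils, had WT intensities of 40.4, 218 and 248.1 and KO intensities of 47.6, 72.1 and 86.9. On both arrays of mouse 1, *Col5a2* was below the background level of 62.1.

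The differences of these 4 chains over the 3 mice were -1.02 (standard error 1.14) for *Col1a2*, -0.77 (0.69) for *Col1a1*, -0.88 (0.67) for *Col3a1* and -0.96 (0.70) for *Col5a2*. Their adjusted p-values from limma lay between 0.78 and 0.85. Without mouse 1, *Col1a2* was 3.05-fold lower in KO cells (difference -1.61, standard error 0.12, adjusted p = 0.013 from limma). *Col5a2* was then 2.94-fold, *Col3a1* 2.76-fold and *Col1a1* 2.43-fold lower, each with an adjusted p of 0.015. All 4 passed the test in that comparison of 2 WT with 2 KO arrays. Its WT arrays are among those that defined the low set, here and for the other low chains below. Choice and test are thus not independent.

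The other 7 fibrillar chains differed by -0.17 to 0.26. *Col5a1*, the partner of *Col5a2* in the most common type 5 trimer, had WT intensities of 80.2, 116.9 and 112.2 and KO intensities of 79.1, 91.3 and 103.2, a difference of -0.17 (standard error 0.18, adjusted p = 0.85 from limma). It was lower in KO cells of all 3 mice, by 0.36 at most. *Col27a1*, a fibrillar chain of cartilage, had WT intensities of 99.7, 102.5 and 96 and KO intensities of 110.9, 126.7 and 119.4. Its groups did not overlap, and the difference was 0.26 (standard error 0.09, adjusted p = 0.69). The chains of cartilage fibrils differed by 0.14 (*Col2a1*), 0.24 (*Col11a2*) and 0.003 (*Col11a1*). *Col2a1*, the main one, was at 87.3 to 97.8 in WT and 99.7 to 105 in KO cells, *Col11a2* at 82.8 to 100.5 in WT and 101.6 to 111.2 in KO cells, and *Col11a1* at 49.4 to 68.3 in WT and 56 to 64.1 in KO cells. *Col5a3* was at 74 to 85.2 in WT and 75.8 to 86.6 in KO cells. *Col24a1*, at 45.6 to 48.6 in WT and 51.6 to 56.3 in KO cells, was not above background.

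Over the 11 fibrillar chains the median difference was -0.003, with quartiles from -0.82 to 0.16, beside a median of 0.03 over all probe sets tested. Within the class, 4 chains lay at -1.02 to -0.77 and the other 7 at -0.17 to 0.26.

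Of the network chains, 1 of 9 was in the set of low chains. *Col8a1*, a short chain of vessel walls and of the cornea, had WT intensities of 54.8, 280.5 and 182.8 and KO intensities of 55.4, 91.8 and 83.4. It was below background on both arrays of mouse 1 and 3.06-fold and 2.19-fold lower in KO cells of mice 2 and 3. Its difference was -0.91 (standard error 0.59, adjusted p = 0.75 from limma), and -1.37 without mouse 1, with an adjusted p of 0.066. Its partner *Col8a2* was not above background, at 41.8 to 46.3 in WT and 48.9 to 51.4 in KO cells.

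Type 4 collagen is the network of basement membranes. *Col4a1*, one of its 2 common chains, had WT intensities of 61, 97.7 and 82.7 and KO intensities of 70.6, 70.2 and 71.2, a difference of -0.16 (standard error 0.18). *Col4a2*, the other, was at 63.7, 81 and 74.3 in WT and 57.7, 76.5 and 75.6 in KO cells. The groups overlap for both, and neither passed the test (adjusted p = 0.85 and 0.93 from limma). The 4 chains with narrower tissue range, *Col4a3* to *Col4a6*, were not above background, with differences of 0.18 to 0.26. *Col4a3* was at 41.6 to 48 in WT and 50.2 to 53.1 in KO cells. *Col4a5* had the smallest p among the network chains, at 53.7 ± 3.12 in WT and 64.5 ± 4.11 in KO cells (SD, n = 3 each, adjusted p = 0.69 from limma). *Col10a1*, the chain of growth plate cartilage, was at 88.2 to 132.5 in WT and 88.9 to 106.1 in KO cells. The median over the 9 network chains was 0.18.

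Type 6 collagen divided in the middle. *Col6a1*, *Col6a2* and *Col6a3* make the classical type 6 trimer, and all 3 were in the low set. *Col6a1* had WT intensities of 66.2, 367.6 and 579.4 and KO intensities of 85.2, 156.2 and 170.4. *Col6a2* had WT intensities of 122.8, 316.5 and 419.1 and KO intensities of 101.9, 169.6 and 186.3, and *Col6a3* had 64.2, 366.7 and 348 in WT and 47.3, 132 and 127 in KO cells. *Col6a2* and *Col6a3* were lower in the KO culture of all 3 mice, while *Col6a1* was higher in that of mouse 1 by 0.36. The differences were -0.88 (standard error 0.80) for *Col6a1*, -0.78 (0.48) for *Col6a2* and -1.12 (0.76) for *Col6a3*, with adjusted p-values of 0.74 to 0.81 from limma. Without mouse 1, *Col6a3* was 2.76-fold lower in KO cells and passed (adjusted p = 0.013), and *Col6a1* (2.83-fold lower, adjusted p = 0.056) and *Col6a2* (2.05-fold lower, adjusted p = 0.072) did not.

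*Col6a4*, *Col6a5* and *Col6a6* encode the chains that can stand in for the alpha 3 chain of type 6 collagen. *Col6a6* had WT intensities of 95.3, 87.8 and 77.2 and KO intensities of 120.4, 136 and 134.8. All KO values lie above all WT values, with an exact two-sided permutation p of 0.1, the smallest that 3 arrays against 3 allow. The difference of 0.59 (standard error 0.11, adjusted p = 0.69 from limma) was the largest positive one among the 44 chains. The second probe set of *Col6a6* was not above background, at 23.4 to 30.5 in WT and 27.4 to 32.3 in KO cells. Its groups overlap, and its difference was 0.19, with -0.04, 0.46 and 0.15 in mice 1, 2 and 3. With the probe sets of a gene averaged, the difference of *Col6a6* was 0.39 (adjusted p = 0.70 from limma). *Col6a5* (44.1 to 54.8 in WT, 52.3 to 66.1 in KO cells) and *Col6a4* (43.1 to 49.2 in WT, 43.8 to 56.7 in KO cells) were not above background. The median over the 6 chains was -0.31.

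The 18 chains of other types include those that decorate fibrils, those that span the cell membrane and the anchoring fibril chain. *Col12a1*, a fibril-associated chain of dense connective tissue, was the only one of them in the low set. It had WT intensities of 46.3, 450.6 and 627.4 and KO intensities of 40.6, 146.4 and 175.1. Both arrays of mouse 1 were below background, and the groups overlap. The difference of *Col12a1*, -1.22 (standard error 1.08, adjusted p = 0.81 from limma), was the lowest of the 44, and without mouse 1 it was -1.73 (standard error 0.19, adjusted p = 0.022).

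The other 17 of these chains differed by 0.06 to 0.37, with a median of 0.15. Among them *Col9a2* was at 121 to 143.8 in WT and 136.6 to 185.1 in KO cells, and *Col15a1* at 108.9 to 137.9 in WT and 116.6 to 135 in KO cells. *Col9a3*, which with *Col9a1* and *Col9a2* makes the type 9 collagen of cartilage, had the largest difference, at 78.1 ± 7.28 in WT and 101 ± 15.7 in KO cells (SD, n = 3 each, adjusted p = 0.69 from limma). *Col7a1*, the chain of the anchoring fibrils of skin, was at 92.9 to 100.3 in WT and 111.2 to 114.7 in KO cells. *Col22a1*, a chain of tissue junctions, was at 66.2 to 76.1 in WT and 81.2 to 92.2 in KO cells. Neither *Col7a1* nor *Col22a1* overlapped between the groups, and their differences, 0.22 and 0.28, are small beside those of the low set.

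*Col26a1* (90.4 to 114.9 in WT, 118.5 to 131.6 in KO cells) did not overlap either, with a difference of 0.28. The groups did overlap for *Col13a1* (79.4 to 92.1 in WT, 83.7 to 107.4 in KO cells), *Col17a1* (63.8 to 71.5 and 67 to 90.6) and *Col23a1* (63 to 74.7 and 74.5 to 77.7), the membrane-spanning chains above background, with differences of 0.14, 0.15 and 0.15. They overlapped too for *Col16a1* (84.5 to 95.4 in WT, 87.8 to 106.3 in KO cells) and *Col20a1* (79.4 to 109.3 and 91.7 to 106.4), fibril-associated chains, with 0.14 and 0.13. *Col14a1*, the relative of *Col12a1*, was not above background, at 43.6 to 49.4 in WT and 54.3 to 59.7 in KO cells. *Col9a1* (43.4 to 55.2 in WT, 52.4 to 68.4 in KO cells), *Col18a1*, *Col19a1*, *Col25a1* and *Col28a1* were not above background either, and these 4 last had differences of 0.07 to 0.14.

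**Figure D2:**
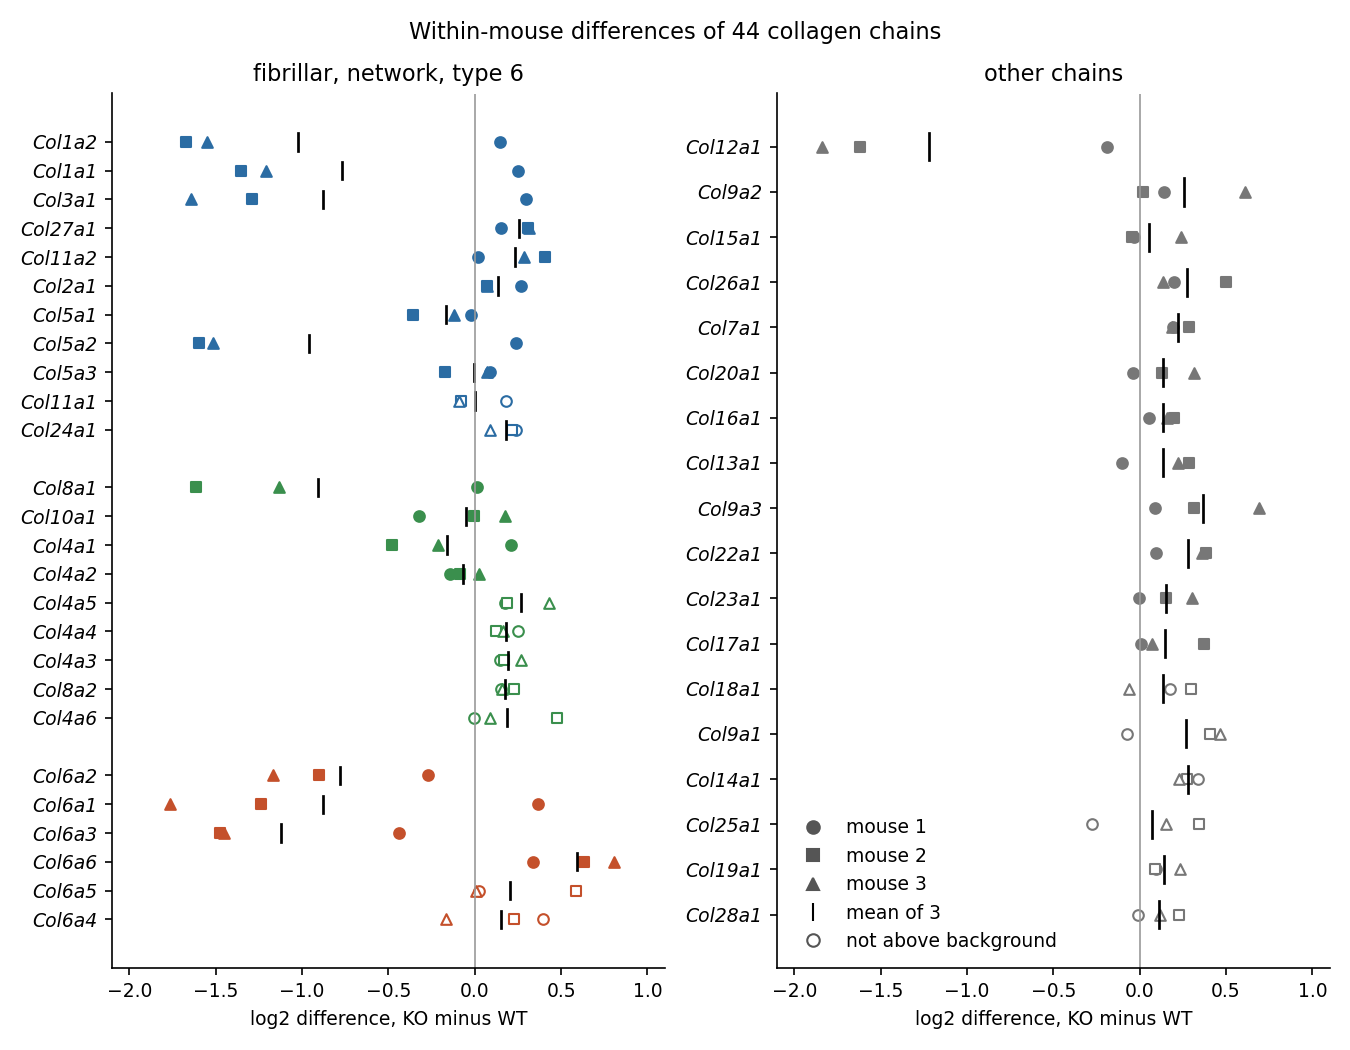
Log2 difference, KO minus WT, of each of the 44 chains in mice 1, 2 and 3 (symbols) with the mean of the 3 (black bar), by class, open symbols marking chains not above background. In mouse 1 the 9 low chains lie between -0.44 and 0.36 and the other 35 between -0.32 and 0.39. In mice 2 and 3 the 9 low chains lie between -1.84 and -0.90.

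The tests over the 3 mice were as follows. Of the 44 chains none passed the adjusted p of 0.05 in limma, and none passed with the mouse as a block. At an unadjusted p under 0.05 there were 7 higher chains (15.9%, against 5.14% of all probe sets) and 0 lower ones (against 1.90%). These 7 were *Col27a1*, *Col4a5*, *Col6a6*, *Col7a1*, *Col9a3*, *Col22a1* and *Col14a1*, and the receptor genes had 12.4% higher at that threshold. With each array centred on its median the 7 became 1, *Col6a6*, against 2.68% of all probe sets. With the mouse as a block, limma gave 8 lower chains at the unadjusted threshold (18.2%, against 5.99% of all probe sets), the low set without *Col6a1*, and 7 higher ones (15.9%, against 7.46% of all probe sets and 17.8% of the receptor genes). The standard errors of the 9 low chains were 0.48 to 1.14 without the block and 0.18 to 0.37 with it, and their adjusted p-values with it were 0.29 to 0.37.

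The size of the difference gave these counts. A mean difference of at least 2-fold was found for 3 chains, all lower (6.82%, against 0.273% of all probe sets that were lower and 0.0231% that were higher by as much), *Col1a2*, *Col6a3* and *Col12a1*. In mice 2 and 3 taken singly, 8 chains (18.2%) were at least 2-fold lower in the KO culture of both mice, against 0.481% of all probe sets. These were the low set without *Col6a2*, which was 1.87-fold lower in mouse 2. With both arrays of mouse 1 left out, limma called 6 chains lower (against 0.490% of all probe sets) and none higher (against 0.00924%). With the mouse as a block in addition, a comparison added after the data were seen, it called all 9 low chains lower (against 1.81%) and *Col6a6* higher (adjusted p = 0.036, against 0.559%). The counts without mouse 1 rest on 2 arrays a group, and their WT arrays are among those that defined the low set.

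The cultures of one condition differed among themselves. The rule that defines the low set, WT cells of mouse 1 at least 2-fold below both other mice, held for 20.5% of the chains and 4.47% of all probe sets. Its distance was 2.58-fold to 13.5-fold from mouse 2 and 3.34-fold to 14.0-fold from mouse 3. For *Col5a2*, *Col8a1* and *Col12a1*, which were below background on the WT array of mouse 1, such a fold depends on a value that was not measured above background. *Col3a1*, at 59.2 on that array, was below the limit of 62.1 set on means over the arrays. It was above the 95th percentile of the receptor genes on that array itself, 57.5. For the other 35 chains the WT culture of mouse 2 was 0.673 to 1.60 times, and that of mouse 3 0.665 to 1.399 times, the level of mouse 1. Among KO cultures the distance of mouse 1 was smaller, at 1.51-fold to 3.82-fold from mouse 2 and 1.51-fold to 4.33-fold from mouse 3. Here 3 chains, again *Col1a2*, *Col6a3* and *Col12a1*, were at least 2-fold below both other cultures (against 2.56%). These counts and the KO minus WT differences share the WT arrays and so are not independent of each other.

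The 29 chains above background had a median difference of 0.06, with quartiles from -0.78 to 0.22, and consisted of the 9 low chains and of 20 with differences of -0.17 to 0.59 and a median of 0.14. The 15 chains not above background had differences of 0.003 to 0.28 and a median of 0.18, and all 15 were positive. Positive differences were also found for 12093 of all 21640 probe sets and for 986 of the 1194 receptor genes. The median of the receptor genes was 0.14 in the same comparison. KO values lay wholly above WT values for 15 of the 44 chains (34.1%), against 10.2% of all probe sets and 19.9% of the receptor genes, and wholly below for 0 (against 4.65%). KO cells were higher in each of the 3 mice for 19 chains (43.2%, against 21.3% of all probe sets and 35.9% of the receptor genes) and lower in each for 4 (9.09%, against 17.4% and 2.68%), *Col5a1*, *Col6a2*, *Col6a3* and *Col12a1*. Of 29 chains above the 95th percentile of the receptor genes, 10 were also above the 99th (an intensity of 108.9), 7 of the low set and *Col9a2*, *Col15a1* and *Col26a1*.

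**Figure D3:**
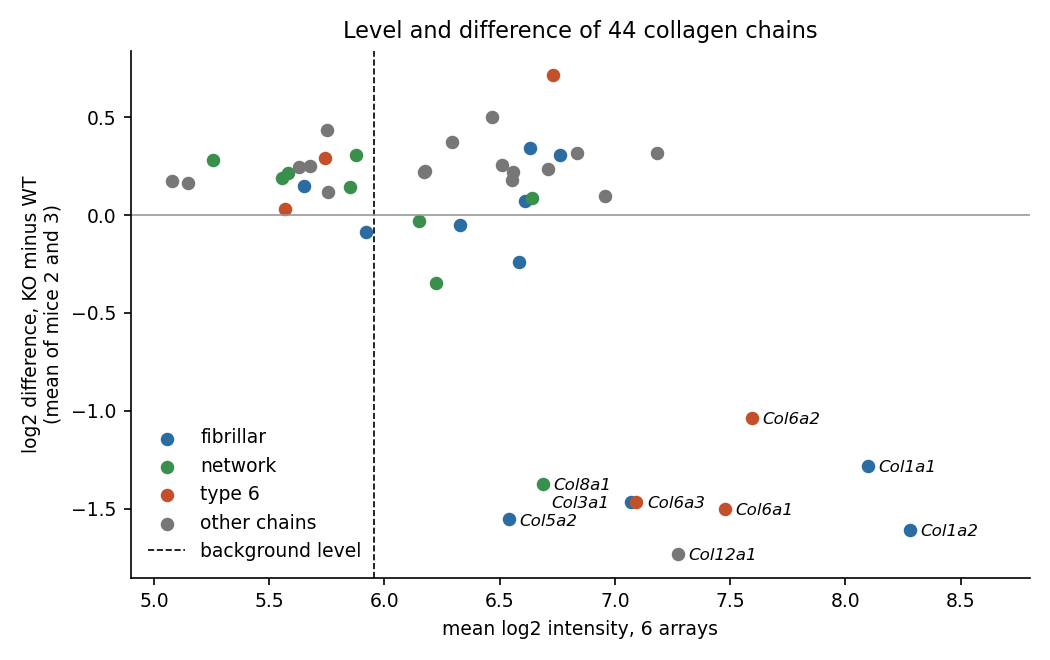
Mean log2 intensity over the 6 arrays (x) against the log2 difference, KO minus WT, averaged over mice 2 and 3 (y), for the 44 chains by class, with the background level as a dashed line. The 9 named chains lie at -1.73 to -1.04, and *Col9a2* and *Col15a1*, at mean log2 intensities of 7.18 and 6.96, lie above 0.

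Genes of neighbouring chains were alike in sign in all 8 pairs that have no protein-coding gene between them in RefSeq. Of the 44 chains, 30 had a positive and 14 a negative difference (12093 of all 21640 probe sets had a positive one), so many pairs of any chains are alike in sign. *Col6a5* is counted in both pairs of its cluster. Whether neighbours were alike more often than other chains was not tested. *Col3a1* and *Col5a2* (-0.88 and -0.96) and *Col6a1* and *Col6a2* (-0.88 and -0.78) lay in the low set as pairs. *Col4a1* and *Col4a2*, which share a promoter region and are read in opposite directions, were at -0.16 and -0.07, *Col4a3* and *Col4a4* at 0.19 and 0.18, and *Col4a5* and *Col4a6* at 0.26 and 0.19. The cluster of *Col6a4*, *Col6a5* and *Col6a6* was at 0.15, 0.20 and 0.59, and *Col9a1* and *Col19a1* at 0.27 and 0.14. The other members of the low set, *Col1a1*, *Col1a2*, *Col6a3*, *Col8a1* and *Col12a1*, were in none of these pairs.

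The promoters of the low set were read because these genes shared a pattern over the 6 arrays. RefSeq promoters (GRCm38.p6) were at hand for 35 of the 44 chains and 6 of the 9, *Col1a2*, *Col3a1*, *Col6a1*, *Col6a2*, *Col6a3* and *Col8a1*. In the 250 bases before the start, searched on both strands, CCCTCCC was in 5 of these 6, in 12 of the 29 other chains (41.4%) and in 21.5% of 27025 genes. *Col3a1* had none. TATAAA was in 1 of the 6 (*Col3a1*), in 4 of the 29 and in 14.3% of all genes. CCAAT was in 1 of the 6 (*Col1a2*), in 12 of the 29 and in 37.5% of all genes. GGGCGG, which can share its end bases with CCCTCCC on the other strand, was in 3 of the 6, in 18 of the 29 and in 35.4% of all genes. The motifs were chosen with the values of the chains known, and a match is a description of the letters. The 150 bases before the start of 3 of these genes, 5′ to 3′ on the gene's strand with each CCCTCCC of either strand in capitals, show a type 1 chain, the type 6 chain with the most matches and the chain with none. The window of *Col1a2* is chr6:4505468-4505617 (plus strand), that of *Col6a1* chr10:76726045-76726194 (minus strand) and that of *Col3a1* chr1:45311388-45311537 (plus strand).
Col1a2: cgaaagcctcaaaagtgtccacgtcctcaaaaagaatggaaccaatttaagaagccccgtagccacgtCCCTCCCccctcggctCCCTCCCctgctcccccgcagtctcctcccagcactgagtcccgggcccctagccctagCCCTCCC
Col6a1: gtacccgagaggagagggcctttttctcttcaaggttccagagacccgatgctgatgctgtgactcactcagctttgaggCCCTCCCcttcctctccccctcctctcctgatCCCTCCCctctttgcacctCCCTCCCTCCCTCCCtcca
Col3a1: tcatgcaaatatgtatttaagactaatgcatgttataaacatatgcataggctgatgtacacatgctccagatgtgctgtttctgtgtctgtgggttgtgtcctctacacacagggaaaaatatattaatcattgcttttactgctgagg
The windows of *Col1a2* and *Col6a1* are 62.7% and 60% G and C, with 3 and 5 matches, overlapping ones included, and that of *Col3a1* is 37.3% G and C. Their chains had within-mouse differences in the same range, -1.67, -1.24 and -1.29 in mouse 2 and -1.55, -1.77 and -1.64 in mouse 3.

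The genes that modify, fold, trim, crosslink and bind collagen were followed in a list of 55, of which 51 were measured. Over the 3 mice, limma called 0 of these 51 at the adjusted threshold. At an unadjusted p under 0.05, 3 were higher (against 5.14% of all probe sets) and 0 lower (against 1.90%). With the mouse as a block, 4 were higher (against 7.46%) and 20 lower (against 5.99%). In mice 2 and 3, 8 of the 51 were at least 2-fold lower in the KO culture of both (against 0.481% of all probe sets), *P4ha2*, *Creb3l1*, *Sparc*, *Pcolce*, *Lox*, *Loxl1*, *Bgn* and *Ogn*. The list's median difference was -0.24, beside 0.03 over all probe sets.

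For hydroxylation, which stabilises the triple helix, *P4ha2*, an alpha subunit of prolyl 4-hydroxylase, had WT intensities of 49.2, 269.4 and 419.5 and KO intensities of 52.8, 87.9 and 105.1. Its difference was -1.17 (standard error 0.79, adjusted p = 0.76 from limma). *P4hb*, the beta subunit, which also serves other proteins as a disulfide isomerase, was at 1614 to 1968 in WT and 1389 to 1560 in KO cells, a difference of -0.24. *P4ha3*, not above background, was at -0.60 and *Plod2*, a lysyl hydroxylase, at -0.52, both with overlapping groups. *P4ha2* was below background on both arrays of mouse 1, and *P4hb* was high on all 6 arrays.

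For folding and secretion, *Creb3l1*, a transcription factor of collagen-secreting cells, had WT intensities of 91.8, 196.8 and 225.9 and KO intensities of 94.7, 97.1 and 111.5 (difference -0.66, standard error 0.34). *Sparc*, a collagen-binding matrix protein, had WT intensities of 75, 3316 and 3528 and KO intensities of 39.3, 1333 and 1292. Its difference was -1.23, with a standard error of 1.98 without the mouse as a block. Within mice 1, 2 and 3 it was -0.93, -1.31 and -1.45, and with the block the standard error was 0.13 (adjusted p = 0.15 from limma). *Sparc* was 44.2-fold and 47-fold higher in the WT cultures of mice 2 and 3 than in that of mouse 1. *Serpinh1*, the collagen chaperone HSP47, had WT intensities of 141.2, 515.2 and 457.4 and KO intensities of 166.4, 264.8 and 224. *Ppib*, a general peptidyl-prolyl isomerase, was at 2349 to 2674 in WT and 1872 to 2283 in KO cells, a difference of -0.20. *Mia2*, at 10.9 to 25.7 over the 6 arrays, was not above background.

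For crosslinking, *Lox*, the lysyl oxidase that joins fibrils, had WT intensities of 32.8, 993.3 and 1599 and KO intensities of 27.2, 221 and 329, the largest difference of the list, -1.57 (standard error 1.66, adjusted p = 0.84 from limma). Its relatives *Loxl1* (-0.62) and *Loxl3* (-0.88) were lower in KO cells of mice 2 and 3, and *Loxl4*, not above background, was at -0.10. For propeptide processing, *Pcolce*, an enhancer of the procollagen C-proteinase, had WT intensities of 89.3, 924.6 and 972.5 and KO intensities of 83.8, 346 and 449.6. *Adamts3*, which can trim procollagen at the N end, was at 77.4 to 92.5 in WT and 97.8 to 110.7 in KO cells (difference 0.28, standard error 0.11). *Tll1* (0.26) and *Adamts14* (-0.17) were not above background.

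Proteoglycans that coat fibrils did not share one pattern. *Bgn*, biglycan, had WT intensities of 44.2, 1824 and 1828 and KO intensities of 48, 718.7 and 724.3. *Dcn*, decorin, had WT intensities of 52.3, 204.6 and 254 and KO intensities of 35.3, 204.5 and 238.5, so it was low in mouse 1 as the 9 chains were but differed by less than 0.10 between the cultures of mouse 2 and of mouse 3. *Ogn* (-0.87), *Fmod* (-0.45) and *Epyc* (0.32) were not above background. Among receptors, *Itga11*, the collagen-binding integrin subunit of fibroblasts, had WT intensities of 56.9, 157.4 and 105.9 and KO intensities of 52.2, 69.7 and 79.6. *Ddr2* (-0.42) and *Oscar* (0.54) were not above background.

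Without mouse 1, limma called 8 of the 51 genes, all lower (against 0.490% of all probe sets lower and 0.00924% higher), *P4ha2*, *Serpinh1*, *Creb3l1*, *Sparc*, *Pcolce*, *Lox*, *Loxl1* and *Bgn*. *Lox* was then at -2.22 (standard error 0.27, adjusted p = 0.033) and *Sparc* at -1.38 (standard error 0.11, adjusted p = 0.013).

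**Figure D4:**
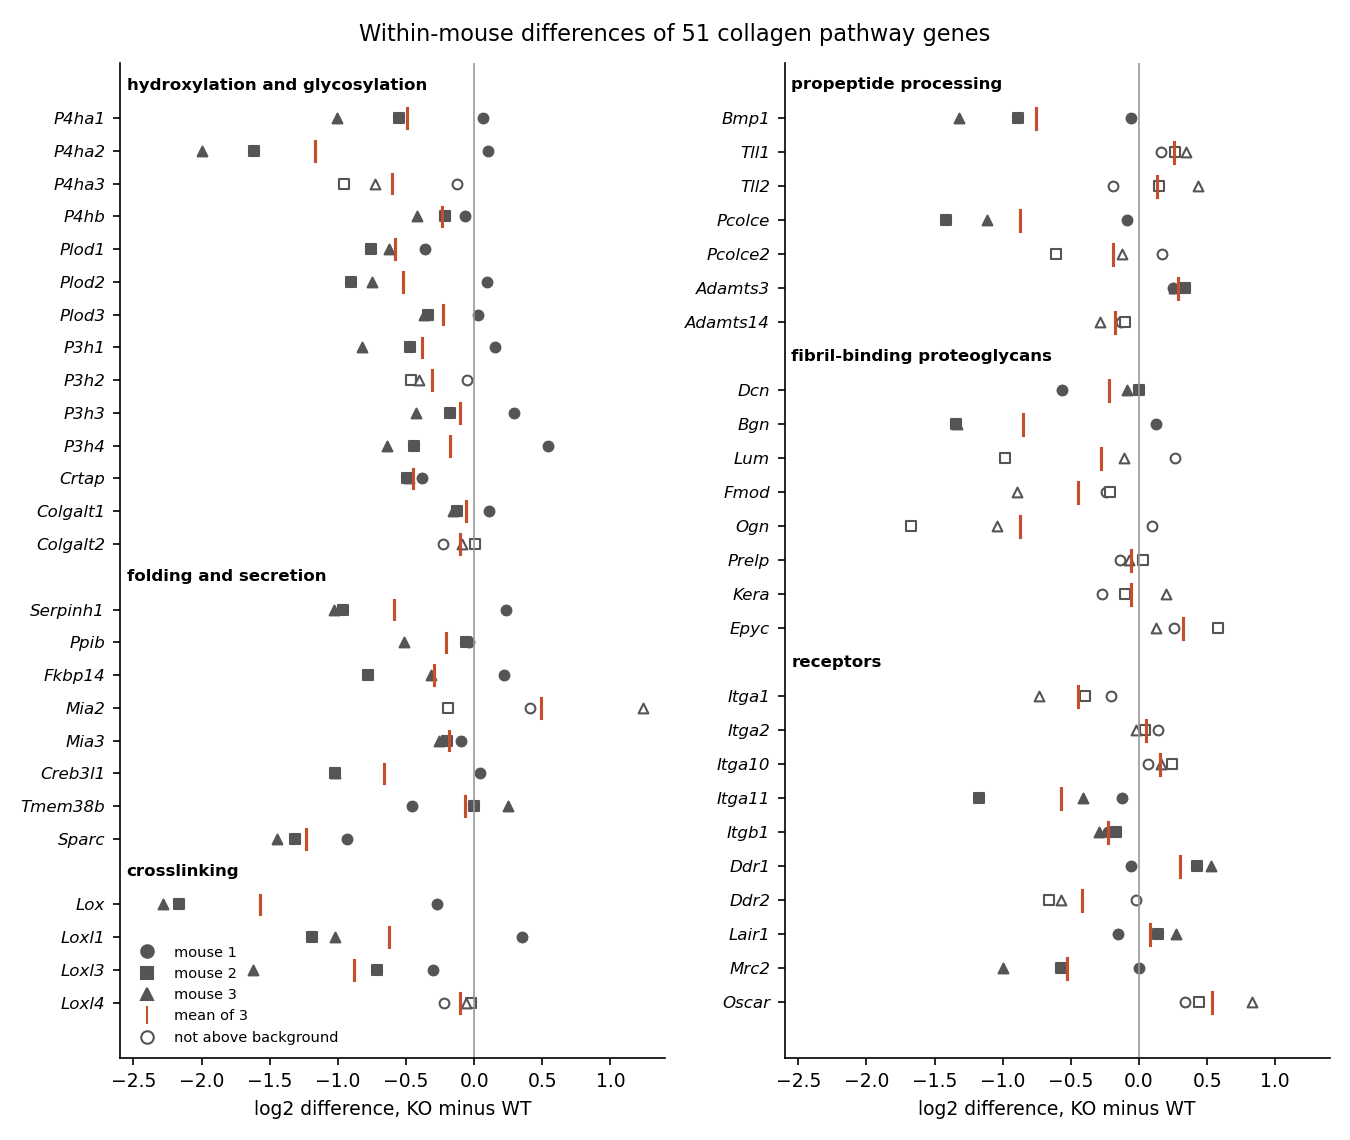
Log2 difference, KO minus WT, of 51 collagen pathway genes in mice 1, 2 and 3 (symbols) with the mean of the 3 (red bar), by role, open symbols marking genes not above background. *Lox* lies at -0.27 in mouse 1 and at -2.17 and -2.28 in mice 2 and 3, and *Dcn* at -0.57, -0.0005 and -0.09.

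Marker lists of other cells were set beside the collagens. Summed over the 9 chains the intensity was 647, 3945 and 4481 in WT cells of mice 1, 2 and 3 and 674, 1454 and 1588 in KO cells, and over the other 35 chains it was 2488 to 2588 in WT and 2737 to 2900 in KO cells. All 8 measured markers of pDCs, such as *Siglech* and *Tcf4*, were above background on the mean, and their summed intensity was 39540, 20340 and 15680 in WT and 37980, 27000 and 24390 in KO cells. It was thus highest in mouse 1, where the 9 chains were lowest, and in mice 2 and 3 higher in KO than in WT cells. Of the 9 fibroblast markers measured, 6 were above background, and *Lum*, *Fap* and *Twist2* were not. At least 2-fold lower in the KO cultures of both mouse 2 and mouse 3 were 2 of the 9, *Postn* and *Prrx1* (against 0.481% of all probe sets). *Thy1* differed by -0.19 and 0.03 in these mice and *Dcn* by -0.0005 and -0.09. Smooth muscle markers (6 measured, 3 above background) summed to 347.2 to 1722 in WT and 300.7 to 607.9 in KO cells, with *Myh11*, *Cnn1* and *Des* not above background. Of the 6, 3 were at least 2-fold lower in the KO cultures of both mouse 2 and mouse 3, *Acta2*, *Tagln* and *Actg2* (against 0.481% of all probe sets).

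Neutrophil markers (6 of 6 above background) summed to 1213 to 9254 in WT and 353.9 to 3827 in KO cells. Of these, 5 of the 6 were at least 2-fold lower in the KO cultures of both mouse 2 and mouse 3 (against 0.481% of all probe sets). Macrophage markers (8 of 8 measured above background) summed to 1735 to 16530 in WT and 1409 to 14190 in KO cells, with none at least 2-fold lower in both mice. Both lists were lowest in mouse 1. Osteoblast markers (4 measured, 0 above background) summed to 141.9 to 179.5 in WT and 158.5 to 176.5 in KO cells, and chondrocyte markers (5 measured, 1 above background, *Sox9*) to 208.1 to 230.7 and 222.5 to 252.2. Endothelial markers (6 measured, 3 above background) summed to 726.8 to 1376 in WT and 879.3 to 1451 in KO cells, highest in mouse 1. *Pecam1* made up 869.8 of the 1376, and *Pecam1*, *Kdr* and *Cdh5* were each highest in mouse 1. *Tek*, *Tie1* and *Emcn*, not above background, were instead lowest there among WT cells. Of all these markers limma called 0 at the adjusted threshold.

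**Figure D5:**
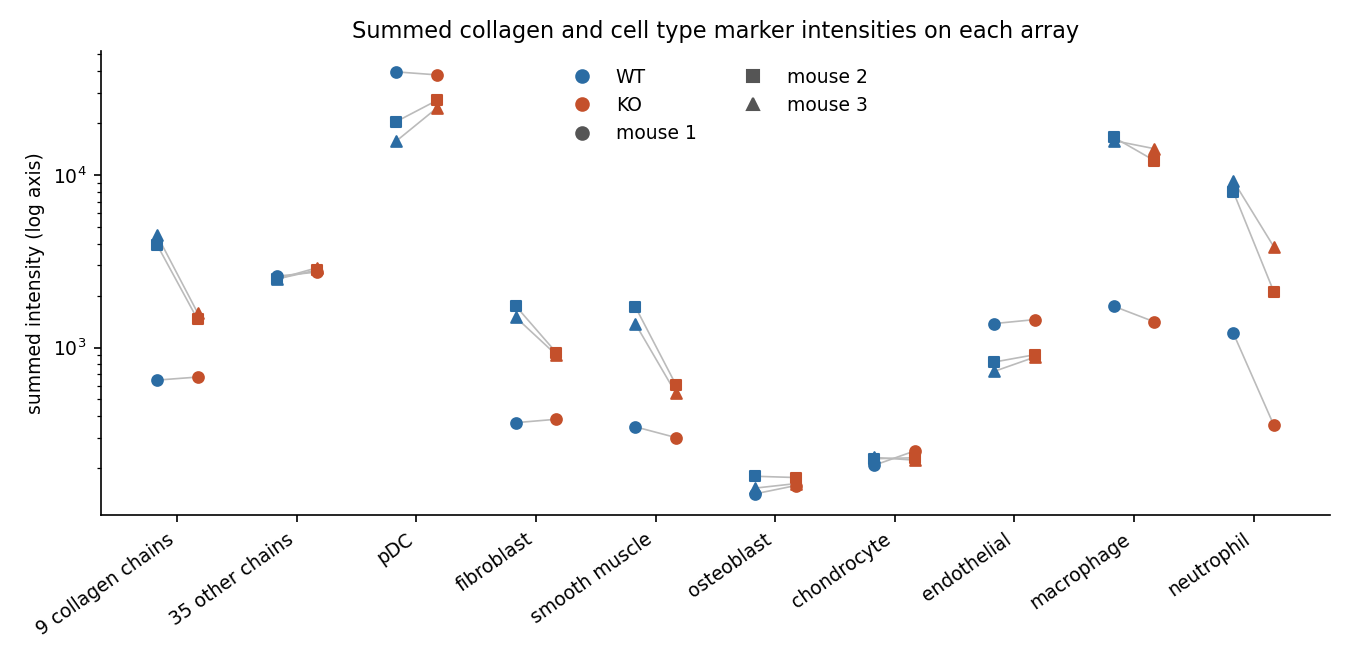
Summed intensity (log axis) of the 9 low chains, the 35 other chains and 8 lists of cell type markers on the 6 arrays, WT in blue and KO in red, with a symbol for each mouse. The 9 chains, the fibroblast, smooth muscle, macrophage and neutrophil lists are lowest in mouse 1, and the pDC list is highest there, at 39540 in WT and 37980 in KO cells.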

How the data were processed

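RNA (200 ng) of sorted pDCs was put on Affymetrix Mouse Gene 1.0 ST arrays, 1 per culture. The deposited values are linear intensities with near-equal medians on the 6 arrays (69.0 to 72.9). The authors' background correction, normalization and probe summary are not given in the sources used here. The number of arrays, 3 per group, limits the precision, and levels near background compress differences. Of 34760 probe sets, 21640 were paired with exactly 1 symbol, 1321 with several and 11799 with none. Log2 intensities of the 21640 were fitted by group in limma (version 3.58.1, R 4.3.3) with its moderated two-sided test, and p-values were adjusted over all 21640 by the Benjamini-Hochberg method, at a threshold of 0.05. The step was tested on simulated data.

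The labels give each mouse a WT and a KO array and so pair them. Deviations from group means correlated at 0.81, 0.51 and 0.67 within mice 1, 2 and 3. Between mice 2 and 3 they correlated at 0.50 (WT 2 with KO 3) and 0.42 (WT 3 with KO 2), and between mouse 1 and the others at -0.72 to -0.54. These values thus set mouse 1 apart more than they tell mice 2 and 3 apart. A fit with the mouse as block served as an alternative. Other alternatives were renormalization, centring, a floor, a filter, averaged probe sets, array weights, a trended fit, other background levels, and arrays or mice left out.

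Members and lists were chosen with earlier results of these data known. Values or ranges are given for every chain above background, for the 2 others per class with the smallest p, and for the 3 pathway genes per role with the smallest p and those of at least 2-fold. *Serpinh1*, *Pcolce*, *Bgn*, *Dcn* and other names beyond this were chosen after their values were seen. A search of chain proteins for triplet repeats was planned and not run, as protein sequences were not used here.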

Additional observations from a re-analysis of the deposited data

How the results depend on the processing

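Directions of the 9 low chains were the same under every alternative run, and none passed the adjusted p unless both arrays of mouse 1 were left out. With the replicate block (the mouse) no chain passed, 0 as without it. Leaving out an array or a mouse gave 0 to 6 chains and 0 to 8 pathway genes called, 0 to 108 probe sets called in all, and 0 to 9 chains at least 2-fold lower, a count that was 3 over all arrays. It was 9 when WT 1 alone or mouse 1 as a whole was left out, 0 for WT 2, WT 3, KO 1 or the whole of mouse 3, 7 for KO 2, 5 for KO 3, 1 for the whole of mouse 2, and 8 with array weights. With the block and without mouse 1, a comparison chosen after seeing the data, 10 chains, 16 pathway genes and 513 probe sets were called, 9 chains were at least 2-fold lower and the network median was 0.14. A floor at the 20th percentile called 2 probe sets, neither a collagen.

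Class medians shifted as follows. With quantile normalization the medians of all chains, network chains and chains not above background became 0.0918, 0.0915 and 0.0921, and with centring 0.0817, 0.12 and 0.12, with -2e-04 for chains above background. The median of all probe sets was 0.01 and -0.03 under these settings, against 0.03. With probe sets above the median level alone, 23 chains were left, at 0.0554 for all, -0.47 for fibrillar, -0.48 for network and -0.83 for type 6 chains. Array weights gave 0.13 for network chains. With the background at the 90th or 99th percentile, chains above it had 0.14 or -0.83. Leaving out arrays or mice gave 0.0926 to 0.17 for all chains, -0.14 to 0.045 for fibrillar, 0.0402 to 0.16 for network, -0.59 to -0.0163 for type 6, 0.12 to 0.23 for other chains, -0.0374 to 0.0949 for chains above background and 0.14 to 0.21 for those not above it.

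Signs turned for chains near 0. *Col11a1* was at -0.0614, -0.0526 and -0.0785 with quantile normalization, centring and array weights and -0.0864 with the block and without mouse 1. *Col10a1* was at 0.0465 with array weights and 0.0853 with the block and without mouse 1, and *Col15a1* at -2e-04 with centring. With arrays or mice left out, *Col11a1* ran from -0.14 to 0.0898, *Col10a1* from -0.16 to 0.14, *Col15a1* from -0.0374 to 0.15, *Col4a2* from -0.16 to 0.0653, *Col5a3* from -0.0629 to 0.0802 and *Sparc* from -3.07 to 0.45, where it was above 0 without KO 1 alone. Pathway genes at the floor on all arrays gave no value there. The causes of these shifts were not tested.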
